A study of Homo sapiens with 12 samples.

Results

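A2058, an established human melanoma cell line, was given a siRNA against the transcription factor MITF and compared with the same cells given a scrambled siRNA. The genes described are the 14297, of 26364 in the table of counts, that passed a filter on low counts. Their counts were compared between 3 libraries labelled MITF siRNA and 3 labelled scrambled siRNA, 6 of the 12 libraries of the series. Cells of both groups were transfected with Lipofectamine, a lipid reagent that carries siRNA into cells, and held for 48 hours. The labels name no vector, drug or engineered allele in them, and do not say whether the siRNA was a single duplex or a pool. Direct effects of the siRNA on other transcripts cannot be told apart from effects of less MITF. The other 6 libraries came from puromycin-selected cells that carried a lentiviral vector, either empty or with MITF in it. They entered the same model fit and are used below only where named. The 3 libraries of a group are labelled as biological replicates, but how separately their cultures were kept is not said, so the spread behind each p-value may be technical.

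MITF is a basic helix-loop-helix leucine zipper transcription factor that binds short DNA elements, the E-box CACGTG and the M-box core CATGTG, as a dimer. In melanocytes it drives the genes of melanin synthesis, of the melanosome, the organelle that holds pigment, and of melanosome transport. In melanoma, high MITF goes with a pigmented, differentiated state and low MITF with an invasive state rich in matrix and adhesion genes. A siRNA guides the cell's Argonaute proteins to a matching mRNA, which is then cut.

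Total counts were 17870695 to 23938392 in the MITF siRNA libraries and 13100703 to 14287537 in the scrambled siRNA libraries. Libraries of a group correlated over genes at Pearson's r of 0.993 to 0.996, and no pair held identical counts. The first principal component of these 6 libraries held 53.2% of the variance and separated the groups. All 10 melanocyte markers were detected and tested, with MLANA, PMEL, TYR, DCT and SOX10 among them. Of other cell types, 1 of 10 keratinocyte, 3 of 12 leukocyte, 2 of 8 endothelial and 5 of 10 fibroblast markers had enough counts to test, and those tested summed to 2.15 to 2.83 CPM for endothelial, 18.2 to 18.5 and 22.4 to 24.5 CPM (scrambled and MITF siRNA) for leukocyte and 26.1 to 27.3 and 26.5 to 32.5 CPM for fibroblast markers. CPM divides each count by the TMM-scaled total of its library. The keratinocyte marker stood at 15.6 to 18.9 CPM with scrambled siRNA and 17.3 to 19.7 with MITF siRNA. Of Schwann cell and neural crest glia markers, which include SOX10 and S100B, also counted as melanocyte markers, 8 of 9 were tested. These summed to 1791 to 1946 CPM with scrambled siRNA and 2212 to 2303 with MITF siRNA. Libraries stood apart in 2 ways that touch results below. The nuclear RNA NEAT1 stood at 2321, 844 and 3146 CPM in MITF siRNA replicates 1 to 3 and 2773, 4829 and 4896 with scrambled siRNA. MITF siRNA replicate 2 was thus far below the others. The interferon-induced gene IFI6 stood at 176, 259.8 and 479 CPM in scrambled siRNA replicates 1 to 3 and 348, 437 and 338 with MITF siRNA, so the scrambled siRNA libraries differed among themselves in this response.

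MITF itself was lower in each of the 3 libraries given its siRNA. It stood at 343, 322 and 365 CPM with MITF siRNA and 504, 465 and 431 CPM with scrambled siRNA, and the groups did not overlap (log2 fold change -0.44, SE 0.05, adjusted p = 2.84e-08, from the quasi-likelihood F-test of edgeR adjusted by the Benjamini-Hochberg method, the source of each adjusted p given here). It was 1.36-fold lower, so most of the mRNA remained. In bulk RNA, fewer cells with MITF and less MITF mRNA per cell cannot be told apart, here or for the genes below. Leaving out any 1 of the 6 libraries moved the log2 fold change between -0.51 and -0.38. Its family members TFE3 (log2 fold change -0.01, SE 0.065, adjusted p = 0.919) and TFEB (log2 fold change 0.04, SE 0.20, adjusted p = 0.901), which bind the same elements and serve lysosomal genes, did not pass the test.

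Across all tested genes the response was broad and shallow. Of 14297 genes, 5057 (35.4%) passed at an adjusted p under 0.05, with 2673 higher (18.7%) and 2384 lower (16.7%). These percentages are the background for each list count below, since lists are described by counts and medians and were not tested as sets. The libraries of the 2 groups did not overlap for 6347 genes (44.4%). 811 genes (5.67%) both passed and differed at least 1.5-fold, 489 higher and 322 lower. At least 3-fold changes numbered 50 rises and 11 falls. The median log2 fold change over all tested genes was -0.0026, and the median size among called genes was 0.30. The plot of fold change against expression shows the asymmetry: the larger changes were mainly rises.

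**Figure D1:**
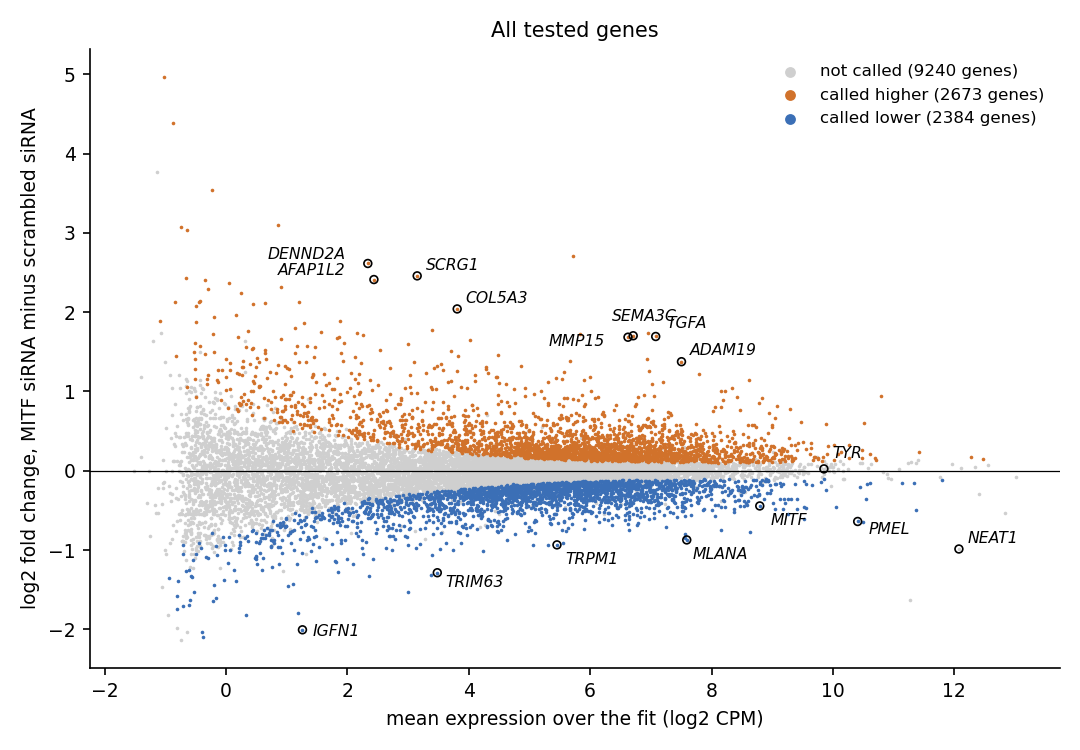
Each point is 1 of the 14297 tested genes, with mean log2 CPM on the x axis and the log2 fold change of MITF siRNA minus scrambled siRNA on the y axis. Orange points (2673) were called higher, blue points (2384) lower and grey points were not called. SCRG1 and COL5A3 are among the labelled rises, at log2 fold changes of 2.46 and 2.04, while MITF (-0.44) lies near the zero line.

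Most tested genes for melanosome matrix proteins, transporters and maturation factors fell. In this list, called melanosome structure here, 1 rose and 13 fell of 17 tested genes (median log2 fold change -0.36). MLANA, a melanosome membrane protein and melanoma antigen, stood at 55.6, 59.4 and 64.8 CPM with MITF siRNA and 118, 103 and 109 with scrambled siRNA. Every MITF siRNA library was below every scrambled siRNA library (log2 fold change -0.87, SE 0.057, adjusted p = 1.12e-13). PMEL, whose protein forms the fibrils on which melanin is laid down, stood at 734, 736 and 796 against 1285, 1114 and 1128 CPM, again without overlap (log2 fold change -0.64, SE 0.074, adjusted p = 7.16e-06). TRPM1, a cation channel of melanocytes, stood at 7.88, 7.06 and 11.2 against 19.0, 17.3 and 14.6 CPM (log2 fold change -0.93, SE 0.15, adjusted p = 0.000235). MITF siRNA replicate 3 was the highest of its group for TRPM1 and still lay under all scrambled siRNA libraries. GPNMB, a melanosomal and lysosomal glycoprotein, stood at 502, 501 and 510.4 against 763, 737 and 715 CPM (log2 fold change -0.55, SE 0.043, adjusted p = 3.03e-12). ATP7A, which loads tyrosinase with copper, fell (log2 fold change -0.59, SE 0.054), and so did the melanosomal transporter SLC45A2 (log2 fold change -0.52, SE 0.055) and APOE, an apolipoprotein that helps PMEL fibrils form (log2 fold change -0.46, SE 0.079). The list's single rise was QPCT, a glutaminyl cyclase (log2 fold change 0.20, SE 0.045).

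The 3 enzymes of melanin synthesis differed in outcome. DCT, dopachrome tautomerase, stood at 2611, 2573 and 3175 CPM with MITF siRNA and 4205, 3940.2 and 3622 with scrambled siRNA (log2 fold change -0.49, SE 0.079, adjusted p = 0.000227). TYR, tyrosinase, the enzyme of the first and limiting step, stood at 1030.5, 1104 and 1088 against 1094, 1030.1 and 1044 CPM. The groups overlapped, and TYR did not pass the test (log2 fold change 0.02, SE 0.044, adjusted p = 0.713). TYRP1, tyrosinase-related protein 1, stood at 187, 180.5 and 179 against 189, 162 and 167 CPM, also with overlap (log2 fold change 0.08, SE 0.048, adjusted p = 0.205). Without scrambled siRNA replicate 1, TYRP1 was called higher (log2 fold change 0.15, adjusted p = 0.0139).

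The promoter windows of 3 genes that fell and of the 2 enzymes that did not pass are shown because all of them hold the M-box core. Each covers 250 bases before to 50 bases after the RefSeq start site in GRCh38.p14, matched by gene symbol, since the authors' build is hg19. Each of these 5 genes has 1 window in the set used, while other genes can have several. Sequences read 5′ to 3′ along the gene. Capitals mark CATGTG, or CACATG where the element lies on the other strand; none of the 5 windows holds CACGTG. TRIM63, a muscle ubiquitin ligase gene also expressed in melanocytic cells and a reported MITF target, and TSPAN10, a tetraspanin of pigment cells, stand beside GPNMB.
TRIM63 (chr1:26067581-26067880, minus strand): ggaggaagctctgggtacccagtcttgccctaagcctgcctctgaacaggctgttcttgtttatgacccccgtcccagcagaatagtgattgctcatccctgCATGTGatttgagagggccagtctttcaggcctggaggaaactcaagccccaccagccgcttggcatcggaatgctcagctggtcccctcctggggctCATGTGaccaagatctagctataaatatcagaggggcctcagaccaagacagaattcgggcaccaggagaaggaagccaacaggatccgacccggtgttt
GPNMB (chr7:23246525-23246824, plus strand): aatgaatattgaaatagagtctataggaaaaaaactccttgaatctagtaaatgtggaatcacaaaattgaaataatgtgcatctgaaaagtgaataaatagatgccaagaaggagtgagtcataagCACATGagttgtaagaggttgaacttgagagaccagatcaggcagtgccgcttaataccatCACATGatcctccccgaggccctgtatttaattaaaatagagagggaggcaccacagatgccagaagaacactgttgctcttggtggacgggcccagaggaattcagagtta
TSPAN10 (chr17:81642055-81642354, plus strand): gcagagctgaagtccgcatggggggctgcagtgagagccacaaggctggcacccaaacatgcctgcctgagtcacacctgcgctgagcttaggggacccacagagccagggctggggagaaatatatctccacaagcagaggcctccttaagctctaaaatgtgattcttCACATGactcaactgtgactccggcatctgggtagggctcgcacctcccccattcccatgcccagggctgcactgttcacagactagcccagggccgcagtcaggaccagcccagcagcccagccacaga
TYR (chr11:89177625-89177924, plus strand): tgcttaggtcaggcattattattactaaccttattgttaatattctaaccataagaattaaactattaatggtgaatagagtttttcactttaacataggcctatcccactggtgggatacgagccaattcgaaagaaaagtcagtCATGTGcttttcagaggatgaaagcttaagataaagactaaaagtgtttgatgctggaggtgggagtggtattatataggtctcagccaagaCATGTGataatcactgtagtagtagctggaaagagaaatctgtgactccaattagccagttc
TYRP1 (chr9:12693135-12693434, plus strand): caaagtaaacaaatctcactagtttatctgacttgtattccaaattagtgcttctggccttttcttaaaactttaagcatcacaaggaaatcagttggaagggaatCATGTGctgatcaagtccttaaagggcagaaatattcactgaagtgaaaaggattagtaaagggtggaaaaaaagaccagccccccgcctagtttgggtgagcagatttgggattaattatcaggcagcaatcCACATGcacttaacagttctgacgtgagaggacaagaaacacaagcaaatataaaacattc

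The elements begin 148 and 50 bases before the start site in TRIM63, 123 and 62 in GPNMB, 80 in TSPAN10, 104 and 12 in TYR and 144 and 11 in TYRP1. TRIM63, with 2 elements, stood at 2.83, 3.03 and 2.91 CPM with MITF siRNA and 7.27, 7.16 and 6.99 with scrambled siRNA, the largest fall among the reported targets (log2 fold change -1.28, SE 0.14, adjusted p = 7.92e-09). TSPAN10, with 1 element, stood at 3.63, 3.45 and 4.86 against 6.27, 6.67 and 5.81 CPM (log2 fold change -0.63, SE 0.14, adjusted p = 0.000466). The windows of TYR and TYRP1, whose libraries overlapped between groups, hold 2 elements each, as many as TRIM63. A letter match is a description and no measured binding. Not every gene that fell holds an element: the windows of MLANA, IRF4 and RAB27A hold neither CATGTG nor CACGTG. Of the 2 windows of DCT, 1 holds CATGTG. Windows were found for 11089 of the tested genes, 16144 windows in all. CATGTG, on either strand, was in 7.75% of these, in 8.88% of the windows of genes called lower and in 8.21% of those of genes called higher. Among genes changed at least 1.5-fold the shares were 12.7% (lower) and 11.4% (higher). The longer TCATGTG, on either strand, was in 1.94% of all these windows, 2.76% of those called lower and 1.56% of those called higher. At a change of at least 1.5-fold its shares were 3.55% (lower, 12 windows) and 2.43% (higher, 14 windows). These shares were not tested. CACGTG reads the same on both strands and differs from CATGTG in its letters, though 2 elements may share bases. It was in 9.23% of all these windows, 9.74% of those called lower and 8.14% of those called higher. At a change of at least 1.5-fold the CACGTG shares were 6.51% (lower, 22 windows) and 5.55% (higher, 32 windows). Both lay under 9.23%, and they were not tested either. Of the 71 windows of reported MITF targets, 22.5% held CATGTG and 21.1% CACGTG.

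Machinery that moves melanosomes to the cell edge fell in part. In the melanosome transport list 3 rose and 12 fell of 31 (median -0.13). The 3 parts of the complex that ties melanosomes to actin were all called lower. MLPH, the linker protein melanophilin, stood at 44.1, 39.8 and 50.1 against 67.9, 66.9 and 63.9 CPM (log2 fold change -0.56, SE 0.068, adjusted p = 2.39e-07). RAB27A, the small GTPase that recruits it, stood at 36.1, 41.4 and 45.4 against 61.4, 59.4 and 58.0 CPM (log2 fold change -0.53, SE 0.07, adjusted p = 9.18e-07). MYO5A, the motor, fell less (log2 fold change -0.32, SE 0.05). In all 3 genes the groups did not overlap. RAB38, a GTPase that sorts melanin enzymes (log2 fold change -0.43, SE 0.066), RAB7A of late endosomes (log2 fold change -0.52, SE 0.064) and LYST, a regulator of lysosome-related organelle size (log2 fold change -0.48, SE 0.045), fell too. MYRIP, which links RAB27A to other myosins, moved the opposite way, at 3.35, 3.82 and 3.38 against 1.91, 1.19 and 0.956 CPM (log2 fold change 1.38, SE 0.23).

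Lineage transcription factors of melanocytes went both ways. IRF4, a pigment gene regulator and MITF target, stood at 60.4, 53.5 and 60.1 against 101, 94.1 and 85.3 CPM without overlap (log2 fold change -0.69, SE 0.061, adjusted p = 2.75e-10). PAX3 (log2 fold change -0.30, SE 0.058) and SNAI2 (log2 fold change -0.41, SE 0.054), both neural crest factors, also fell, whereas SOX10, which activates MITF, did not pass (log2 fold change -0.08, SE 0.041, adjusted p = 0.15). FOXD3, a neural crest factor that represses melanocyte fate, stood at 25.4, 26.1 and 23.7 against 14.2, 12.8 and 9.05 CPM and rose (log2 fold change 1.06, SE 0.10, adjusted p = 3.8e-10). POU3F2 (BRN2), a factor of the invasive melanoma state, rose as well (log2 fold change 0.56, SE 0.055), as did TFAP2C (log2 fold change 0.87, SE 0.10). In the whole list of MITF, its family and lineage factors 10 rose and 7 fell of 33, with MITF itself among the falls. The falls ran from 5 to 8 when 1 library was left out. In a list of melanocyte receptors and surface proteins that also holds intracellular ones, 5 rose and 6 fell of 19. The TNF receptor family member TNFRSF14 fell (log2 fold change -0.74, SE 0.071). Of the intracellular members, the calpain CAPN3 fell (log2 fold change -0.79, SE 0.063), and GAS7 (log2 fold change 0.82, SE 0.046) and S100B (log2 fold change 0.57, SE 0.066) rose. The endothelin receptor EDNRB overlapped and was not called (log2 fold change -0.00, SE 0.04).

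**Figure D2:**
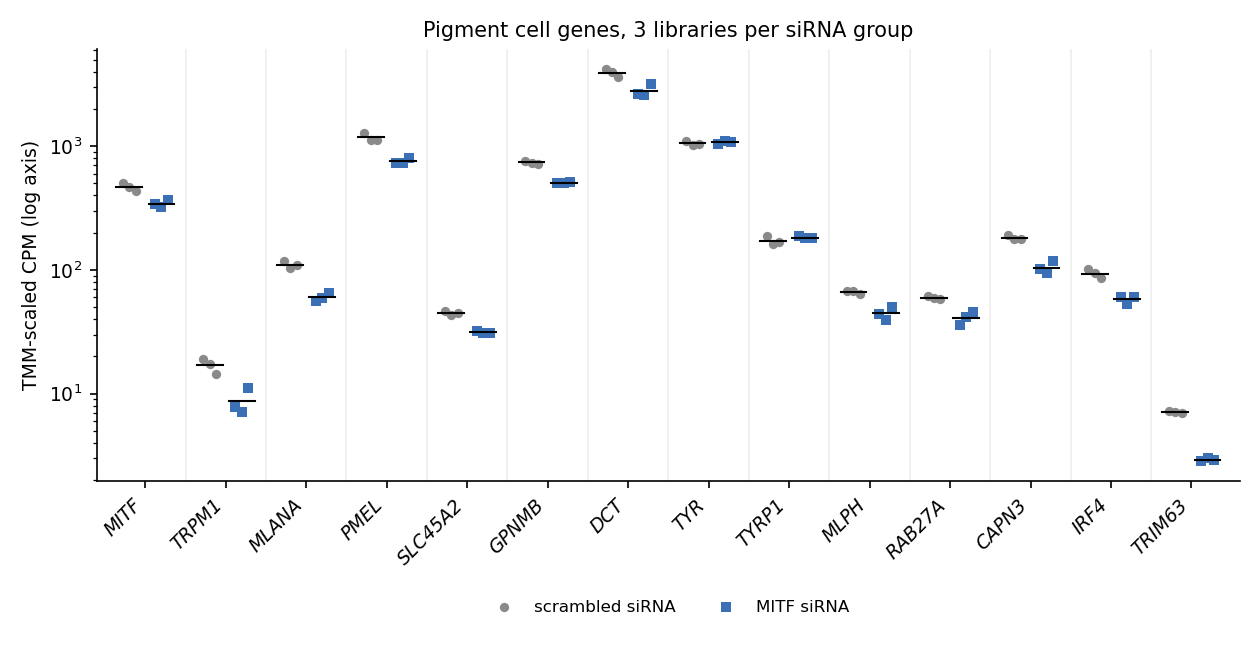
TMM-scaled CPM (log axis) of 14 genes of the pigment cell in the 3 scrambled siRNA libraries (grey circles) and 3 MITF siRNA libraries (blue squares), with black lines at group means. The groups do not overlap for the genes other than TYR and TYRP1.

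Of reported MITF targets, a list from general knowledge that shares some genes with the lists above, 3 rose and 42 fell of 59 (median log2 fold change -0.30). Besides TRIM63, IRF4 and RAB27A these included HPGD, a prostaglandin-degrading enzyme (log2 fold change -0.99, SE 0.15), RRAGD (log2 fold change -0.64, SE 0.056) and ASAH1, the lysosomal acid ceramidase (log2 fold change -0.46, SE 0.045). RRAGD belongs to the Rag GTPases, which call mTORC1 to the lysosome when amino acids are plentiful. It stood at 43.2, 44.6 and 46.4 against 72.5, 72.7 and 64.6 CPM. Of the genes of that nutrient pathway 4 rose and 9 fell of 26 (median -0.05). Besides RRAGD the falls included SLC36A1, a lysosomal amino acid transporter (log2 fold change -0.71, SE 0.10), folliculin, FLCN, the activator of RRAGC and RRAGD (log2 fold change -0.53, SE 0.07), its partner FNIP1 (log2 fold change -0.37, SE 0.047) and RRAGC (log2 fold change -0.39, SE 0.069). The 4 rises of this list became 1 when only the 6 siRNA libraries were fitted, and also without MITF siRNA replicate 2 or 3 or scrambled siRNA replicate 2 or 3. Among lysosomal enzymes 11 rose and 14 fell of 48 (median -0.07), and 7 rose without MITF siRNA replicate 2. Among autophagy genes 10 rose and 11 fell of 33. SQSTM1, the p62 cargo receptor, fell from 777, 851 and 910.1 to 574, 547 and 539.9 CPM (log2 fold change -0.61, SE 0.048, adjusted p = 3.05e-12).

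The largest rises were not pigment genes. SCRG1, a small secreted protein of glia and cartilage, stood at 22.2, 20.8 and 20.8 CPM with MITF siRNA and 3.75, 4.50 and 3.31 with scrambled siRNA. It was 5.49-fold higher, and the groups lay far apart (log2 fold change 2.46, SE 0.11, adjusted p = 8.06e-18). DENND2A, a regulator of Rab GTPases, was 6.12-fold and AFAP1L2, an adaptor of Src signalling, 5.32-fold higher. CDH19, a cadherin of Schwann cell precursors, which share a neural crest origin with melanocytes, also rose, from 79.0, 71.9 and 69.6 to 172, 191 and 163 CPM (log2 fold change 1.25, SE 0.06, adjusted p = 6.39e-15).

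The largest falls were smaller and of genes with few counts. IGFN1, a muscle protein gene, stood at 0.567, 0.584 and 0.676 against 1.30, 2.95 and 3.16 CPM (log2 fold change -2.00, SE 0.38, adjusted p = 0.000302). Scrambled siRNA replicate 1 was the lowest of its group and still above the MITF siRNA libraries. SLAMF7, a surface receptor best known from lymphocytes, stood at 3.18, 2.39 and 2.32 against 4.90, 7.23 and 7.13 CPM (log2 fold change -1.31, SE 0.16, adjusted p = 5.86e-08), and PRDM7, a histone methyltransferase gene, at 0.624, 0.584 and 0.591 against 1.15, 1.97 and 2.06 CPM (log2 fold change -1.52, SE 0.27, adjusted p = 3.7e-05). Among the falls of smallest p were more abundant genes. UHMK1, a kinase that binds splicing factors, stood at 291, 289 and 292 against 470.1, 501 and 524 CPM (log2 fold change -0.78, SE 0.042, adjusted p = 2.43e-16), with little spread in either group. ANXA5, a phospholipid-binding annexin (log2 fold change -0.64, SE 0.042), the kinase RIPK4 (log2 fold change -0.71, SE 0.047) and the phosphatase DUSP10 (log2 fold change -0.62, SE 0.048) also fell.

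Most enzymes that finish collagen, and part of the collagen chains, rose. Among chains 10 rose and 1 fell of 26 (median log2 fold change 0.13; 2 fell without MITF siRNA replicate 2 or scrambled siRNA replicate 1 and 3 without MITF siRNA replicate 3), and among collagen-modifying enzymes 11 rose and 2 fell of 19 (median 0.26, or 0.44 without scrambled siRNA replicate 3). COL5A3, a fibril-regulating type V chain, stood at 27.0, 28.6 and 29.3 against 7.27, 5.41 and 8.02 CPM, 4.11-fold higher (log2 fold change 2.04, SE 0.10, adjusted p = 3.86e-17). COL5A2 of the same type stood at 14.7, 15.6 and 11.9 against 4.51, 4.71 and 4.56 CPM, 3.04-fold higher (adjusted p = 3.53e-12). COL15A1, a basement membrane chain, rose from 62.7, 56.4 and 55.6 to 112, 124 and 116 CPM (log2 fold change 1.01, SE 0.058, adjusted p = 1e-15). Of the paired type IV chains, COL4A1 rose (log2 fold change 0.47, SE 0.047) while COL4A2 overlapped between groups (log2 fold change 0.07, SE 0.044, adjusted p = 0.227). COL1A2 and COL3A1, of the type I and III fibrils, had too few counts to test. LOXL3, a lysyl oxidase that cross-links collagen, stood at 38.6, 43.9 and 38.8 against 13.7, 14.3 and 16.3 CPM (log2 fold change 1.45, SE 0.082, adjusted p = 6.98e-16). Its relative LOXL2 moved the other way (log2 fold change -0.93, SE 0.16, adjusted p = 0.00223). SERPINH1, the collagen chaperone HSP47, rose (log2 fold change 0.81, SE 0.045), as did the lysyl hydroxylase PLOD2 (log2 fold change 1.00, SE 0.098) and the prolyl hydroxylase subunit P4HA2 (log2 fold change 0.91, SE 0.08).

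Laminins are trimers that build basement membrane. Of laminins and their partners 10 rose and 2 fell of 17 (median log2 fold change 0.37; 1 fell without scrambled siRNA replicate 1). LAMA4 stood at 406, 465 and 419.5 against 227, 219 and 195 CPM (log2 fold change 1.01, SE 0.05, adjusted p = 2.14e-16), and LAMC1, the gamma chain found in most laminins, at 2045, 2338 and 2037 against 1408, 1448 and 1361 CPM (log2 fold change 0.61, SE 0.048, adjusted p = 3.64e-12). Neither gene showed overlap. The alpha chain LAMA1 fell, from 730.1, 731 and 694 to 566, 578 and 543 CPM (log2 fold change -0.35, SE 0.041). Among other matrix glycoproteins 16 rose and 4 fell of 43. VCAN, the proteoglycan versican, stood at 106, 110.3 and 106 against 47.3, 52.6 and 44.5 CPM (log2 fold change 1.16, SE 0.057, adjusted p = 2.82e-17). MATN2, a matrilin that bridges matrix filaments (log2 fold change 1.11, SE 0.066), IGFBP5, an IGF-binding protein (log2 fold change 0.94, SE 0.069), and tenascin TNC (log2 fold change 0.78, SE 0.055) rose. Abundant fibronectin, FN1, rose little (log2 fold change 0.17, SE 0.045, adjusted p = 0.00235), and the collagen-binding protein SPARC did not pass (log2 fold change 0.03, SE 0.047, adjusted p = 0.611).

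Matrix proteases and their inhibitors rose in part. In the list of metalloproteinases, TIMPs and the plasminogen system 10 rose and 3 fell of 20 (median log2 fold change 0.35), and among ADAM and ADAMTS proteases 8 rose and 3 fell of 21. Without scrambled siRNA replicate 3 the 3 falls of the first list became 1. MMP15, a membrane-anchored metalloproteinase, stood at 218, 236 and 201 against 68.8, 67.0 and 67.9 CPM, 3.21-fold higher (log2 fold change 1.68, SE 0.054, adjusted p = 1.35e-22). Its relative MMP14 did not pass (log2 fold change 0.04, SE 0.042, adjusted p = 0.517). ADAM19, a sheddase of growth factors, stood at 289, 332 and 281 against 122, 118 and 108 CPM (log2 fold change 1.38, SE 0.053, adjusted p = 2.24e-19), and ADAMTS1, a versican-cutting protease, rose as well (log2 fold change 0.85, SE 0.053). The inhibitor TIMP3 was higher (log2 fold change 0.73, SE 0.094) and TIMP2 lower (log2 fold change -0.35, SE 0.042). For the collagenase MMP1 (log2 fold change 0.59, SE 0.16, adjusted p = 0.018) the call ended without MITF siRNA replicate 2 (log2 fold change 0.44, adjusted p = 0.0623) and without scrambled siRNA replicate 2 (log2 fold change 0.61, adjusted p = 0.0505), and it also ended with only the 6 siRNA libraries in the fit (0.59, adjusted p = 0.114).

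Of cadherins and markers of epithelial-mesenchymal transition 9 rose and 2 fell of 17, and the rises included CDH19 and the protocadherins PCDH10 (log2 fold change 1.69, SE 0.18), PCDH18 (log2 fold change 1.23, SE 0.1) and PCDH9 (log2 fold change 1.09, SE 0.073). N-cadherin, CDH2, which melanoma cells use in place of E-cadherin, rose less (log2 fold change 0.47, SE 0.052). The 2 falls of this list became 0 without MITF siRNA replicate 3 and 1 without MITF siRNA replicate 1 or scrambled siRNA replicate 1 or 3. Among integrins and focal adhesion genes 9 rose and 7 fell of 33, with ITGA4 (log2 fold change 0.41, SE 0.045) and the tensin TNS3 (log2 fold change 0.57, SE 0.045) higher and ITGA7 (log2 fold change -1.01, SE 0.11) and ITGA5, the fibronectin receptor chain (log2 fold change -0.67, SE 0.076), lower. Among actin cytoskeleton genes 19 rose and 4 fell of 40 (median log2 fold change 0.13; 2 fell without MITF siRNA replicate 1 or 3 or scrambled siRNA replicate 2 or 3, and the median was 0.065 without MITF siRNA replicate 2), including the small GTPase RND3 (log2 fold change 0.66, SE 0.053), tropomyosin TPM4 (log2 fold change 0.58, SE 0.067) and myosin heavy chain MYH9 (log2 fold change 0.33, SE 0.044).

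**Figure D3:**
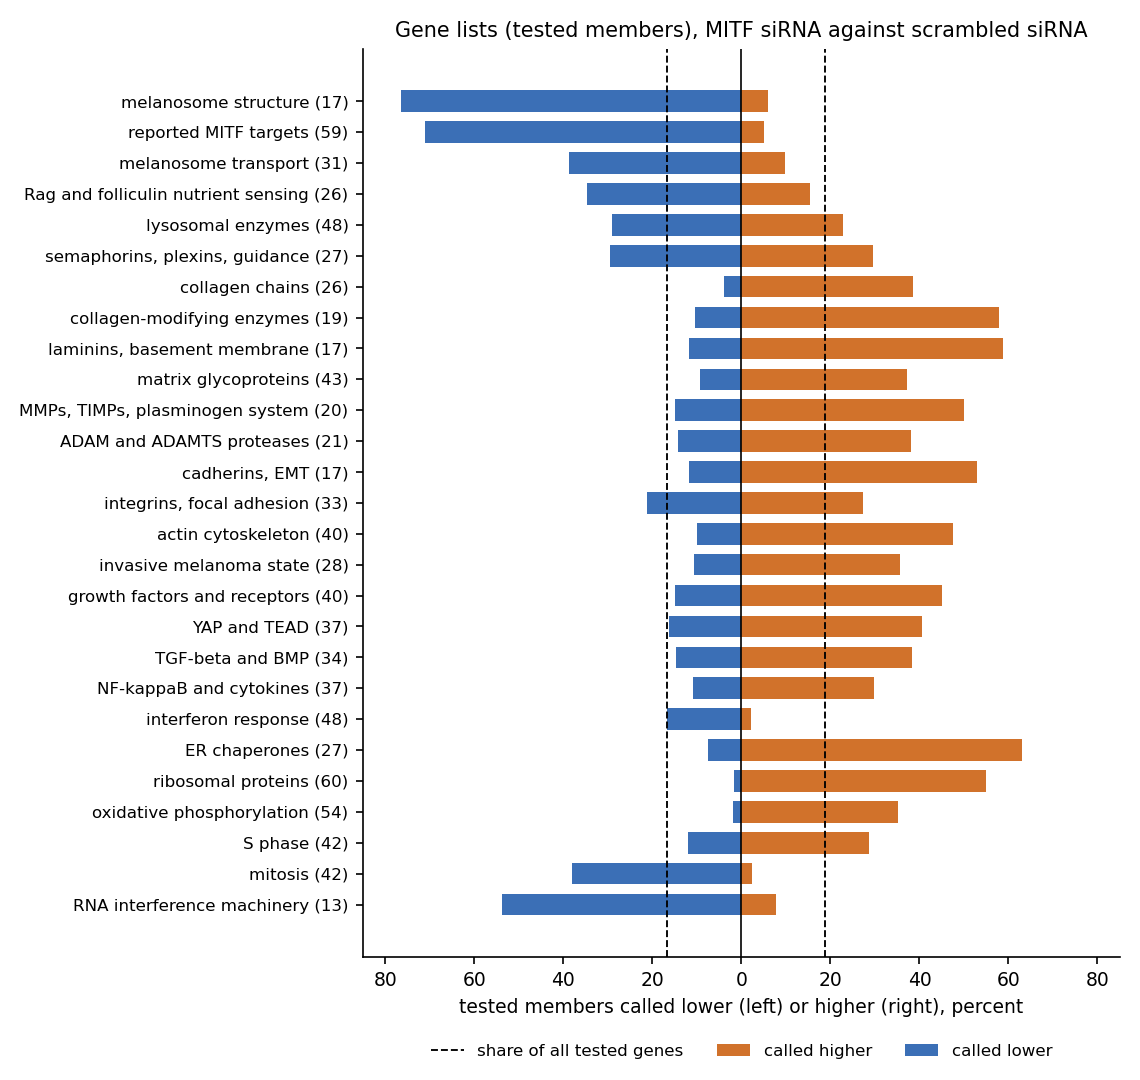
Percent of the tested members (number in brackets) of 27 gene lists that were called higher (orange, right) or lower (blue, left) with MITF siRNA. Dashed lines mark the shares of all tested genes, 18.7% higher and 16.7% lower; melanosome structure reaches furthest to the left and ER chaperones furthest to the right among these lists.

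In the list of receptor tyrosine kinases and ligands 18 rose and 6 fell of 40. TGFA, a ligand of the EGF receptor, stood at 192, 251 and 199.8 against 60.2, 66.3 and 71.9 CPM (log2 fold change 1.69, SE 0.13, adjusted p = 1.16e-05). FGF2, a mitogen for melanocytes, stood at 43.1, 49.1 and 44.5 against 23.9, 22.1 and 24.8 CPM (log2 fold change 0.95, SE 0.074, adjusted p = 2.58e-12), and KITLG, the ligand of KIT, at 58.7, 65.6 and 59.2 against 31.7, 33.6 and 37.7 CPM (log2 fold change 0.83, SE 0.063, adjusted p = 1.52e-12). For these ligands no library of one group reached the other. KIT and EGFR themselves had too few counts to test. NTRK2, a neurotrophin receptor, was 3.34-fold higher (log2 fold change 1.74, SE 0.19). AXL, the receptor that marks MITF-low melanoma, stood at 40.5, 38.5 and 32.5 against 25.2, 32.1 and 37.8 CPM with overlap and did not pass (log2 fold change 0.22, SE 0.13, adjusted p = 0.216). It was called higher without scrambled siRNA replicate 3 (log2 fold change 0.35, adjusted p = 0.0136). NGFR, a marker of the neural crest-like state, did not pass either (log2 fold change 0.15, SE 0.19, adjusted p = 0.59). Of markers of the invasive state 10 rose and 3 fell of 28 (median log2 fold change 0.15), and the falls numbered 6 without scrambled siRNA replicate 1 and 5 without MITF siRNA replicate 2.

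Axon guidance genes, a list of semaphorins and their plexin and neuropilin receptors that also holds slit, Robo, netrin and netrin receptor genes, moved in both directions: 8 rose and 8 fell of 27. The secreted or membrane ligands SEMA3C, SEMA3B and SEMA6B rose. SEMA3C stood at 153, 178 and 153 against 47.9, 49.0 and 51.7 CPM (log2 fold change 1.70, SE 0.056, adjusted p = 1.56e-22), and SEMA3B (log2 fold change 0.71, SE 0.046) and SEMA6B (log2 fold change 0.91, SE 0.058) rose by less. Of the receptors, PLXNC1, the plexin of melanocytes, stood at 12.2, 12.3 and 16.7 against 26.1, 27.3 and 26.1 CPM (log2 fold change -0.93, SE 0.096, adjusted p = 3.64e-08), and PLXNA2 (log2 fold change -1.17, SE 0.17) and the co-receptor NRP2 (log2 fold change -0.57, SE 0.043) fell too, while PLXNB3 rose (log2 fold change 0.38, SE 0.063). The ligands SEMA5A (log2 fold change -0.60, SE 0.063) and SEMA6A (log2 fold change -0.73, SE 0.077) fell. The median log2 fold change of the list, -0.06, changed sign without scrambled siRNA replicate 3 (0.13) and was -0.16 without MITF siRNA replicate 1.

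YAP and TEAD are the effectors of the Hippo pathway, which senses tension and cell contact. In the list of the pathway and its targets 15 rose and 6 fell of 37 (median log2 fold change 0.13). CTGF, a matricellular target, stood at 52.4, 60.8 and 57.6 against 20.4, 25.6 and 26.0 CPM (log2 fold change 1.24, SE 0.093, adjusted p = 6.44e-09), and MYOF, a membrane repair protein, at 208, 291 and 226 against 56.9, 78.1 and 82.2 CPM (log2 fold change 1.74, SE 0.16, adjusted p = 4.89e-05). The co-activator WWTR1 (TAZ) rose (log2 fold change 0.57, SE 0.049) while YAP1 did not pass (log2 fold change -0.06, SE 0.043, adjusted p = 0.267). In the TGF-beta and BMP list 13 rose and 5 fell of 34, with rises of the feedback gene PMEPA1 (log2 fold change 0.94, SE 0.081) and the receptor TGFBR2 (log2 fold change 0.63, SE 0.059) and a fall of the repressor TGIF1 (log2 fold change -0.64, SE 0.07). The 5 falls became 3 with DESeq2 and without MITF siRNA replicate 2 or 3 or scrambled siRNA replicate 2 or 3. Among NF-kappaB factors and cytokines 11 rose and 4 fell of 37. PTGS2, the inducible prostaglandin synthase, stood at 88.9, 114 and 95.2 against 28.2, 31.2 and 30.4 CPM (log2 fold change 1.73, SE 0.073, adjusted p = 1.11e-15), and the chemokine CXCL1 at 423, 542 and 432 against 199, 215 and 216 CPM (log2 fold change 1.15, SE 0.11, adjusted p = 4.11e-05). CXCL8, in the same chemokine family, overlapped (log2 fold change 0.05, SE 0.20, adjusted p = 0.87), and the adhesion molecule ICAM1 fell (log2 fold change -0.47, SE 0.058).

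Chaperones of the endoplasmic reticulum, which fold secreted proteins, mostly rose. In their list 17 rose and 2 fell of 27 (median log2 fold change 0.25). CRELD2 stood at 64.0, 67.9 and 64.1 against 43.2, 40.3 and 39.6 CPM (log2 fold change 0.67, SE 0.056, adjusted p = 1.38e-11), DNAJB11 at 192, 224 and 197 against 138, 146 and 136 CPM (log2 fold change 0.55, SE 0.053, adjusted p = 8.09e-10) and P4HB, a disulfide isomerase that also serves collagen, at 982, 1068 and 936 against 662, 669 and 616 CPM (log2 fold change 0.62, SE 0.047, adjusted p = 1.45e-12). None of the 3 overlapped. The 2 falls became 1 with DESeq2 and without MITF siRNA replicate 1 or 3.

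Cell cycle genes moved by small amounts. Of genes of mitosis 1 rose and 16 fell of 42 (median log2 fold change -0.10), and none rose without MITF siRNA replicate 2 or scrambled siRNA replicate 2. The falls included the kinase AURKB (log2 fold change -0.31, SE 0.065), cyclin B1, CCNB1 (log2 fold change -0.22, SE 0.049), and the anaphase activator CDC20 (log2 fold change -0.25, SE 0.059). Of S phase genes 12 rose and 5 fell of 42, with the replication clamp PCNA at 215, 254 and 244 against 184, 197 and 175 CPM (log2 fold change 0.36, SE 0.059, adjusted p = 4.41e-05). The 5 falls became 3 with DESeq2 and without scrambled siRNA replicate 3. CDK2, a reported MITF target that shares its locus with PMEL, stood at 366, 356 and 352 against 449, 456 and 416 CPM and fell (log2 fold change -0.30, SE 0.041, adjusted p = 5.85e-07). CDKN2B, the inhibitor p15, rose (log2 fold change 0.54, SE 0.078), and cyclin D1, CCND1, overlapped (log2 fold change 0.13, SE 0.17, adjusted p = 0.601). In the G1 list 8 rose and 5 fell of 24, and 3 to 5 rose without any 1 library other than scrambled siRNA replicate 1.

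Genes of the response to oxidants fell more than they rose: 4 rose and 12 fell of 32 (median log2 fold change -0.02). HMOX1, heme oxygenase, stood at 12.1, 9.50 and 10.6 against 15.2, 16.2 and 19.3 CPM (log2 fold change -0.66, SE 0.11, adjusted p = 8.63e-06), and GSR, glutathione reductase, at 279.5, 276 and 262 against 376, 371 and 373 CPM (log2 fold change -0.45, SE 0.04, adjusted p = 6.19e-11). Ferritin heavy chain, FTH1 (log2 fold change -0.35, SE 0.052), and catalase, CAT (log2 fold change -0.35, SE 0.047), fell too, and the metallothionein MT2A rose (log2 fold change 0.44, SE 0.068). In the MAP kinase list 10 rose and 7 fell of 29, with a rise of the feedback inhibitor SPRY1 from 15.5, 17.2 and 15.8 to 28.2, 34.5 and 31.6 CPM (log2 fold change 0.96, SE 0.081, adjusted p = 2.05e-11). Of p53 targets 10 rose and 2 fell of 30, led by the kinase PLK2, which rose from 238, 246 and 243 to 394, 436 and 398 CPM (log2 fold change 0.76, SE 0.043, adjusted p = 1e-15); the 2 falls became 1 without MITF siRNA replicate 1 or scrambled siRNA replicate 2.

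Some counts rested on single libraries. Of ribosomal protein genes 33 rose and 1 fell of 60, with a median log2 fold change of 0.12. The rises numbered 18 without MITF siRNA replicate 2 or scrambled siRNA replicate 3, and 21 without scrambled siRNA replicate 2, and 3 genes fell without MITF siRNA replicate 2. Of nuclear genes of oxidative phosphorylation 19 rose and 1 fell of 54 (median log2 fold change 0.06), and 8, 10 and 9 rose and 3, 3 and 2 fell without MITF siRNA replicate 2, scrambled siRNA replicate 2 and scrambled siRNA replicate 3. In MITF siRNA replicate 2 the nuclear RNAs were low: MALAT1 stood at 4849, 2859 and 6418 CPM in MITF siRNA replicates 1 to 3 and 5546, 7262 and 7590.5 with scrambled siRNA, and NEAT1 as given above. Neither passed (adjusted p = 0.177 and 0.112), though NEAT1 was called lower without MITF siRNA replicate 3 (log2 fold change -1.41, adjusted p = 0.0431) and so was MALAT1 (log2 fold change -0.83, adjusted p = 0.0411). NEAT1 was also called lower by DESeq2 (log2 fold change -0.98, adjusted p = 0.0316), and limma-voom called both NEAT1 (log2 fold change -1.13, adjusted p = 0.00297) and MALAT1 (log2 fold change -0.59, adjusted p = 0.0111) lower. The part of this library's composition in the ribosomal and respiratory counts was not tested beyond these values. Among glycolysis and hypoxia genes 16 rose and 4 fell of 40, with 8 rises when only the 6 siRNA libraries were fitted, 10 without scrambled siRNA replicate 1, and 2 falls without scrambled siRNA replicate 2.

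The count of interferon response genes rested on single libraries. In the list 1 rose and 8 fell of 48 (median log2 fold change -0.12). OAS2, a sensor of double-stranded RNA, stood at 5.28, 19.2 and 47.8 CPM in scrambled siRNA replicates 1 to 3 and 11.4, 15.2 and 13.3 with MITF siRNA (log2 fold change -0.86, SE 0.57, adjusted p = 0.293). Without scrambled siRNA replicate 1, 21 genes fell, and without scrambled siRNA replicate 3, 13 rose, 5 fell and the median was 0.07. Without MITF siRNA replicate 1, 5 fell. IFI6 was called higher without scrambled siRNA replicate 3 (log2 fold change 0.77, adjusted p = 0.0138) and OAS2 lower without scrambled siRNA replicate 1 (log2 fold change -1.32, adjusted p = 0.0212). Of antigen presentation genes 8 rose and 4 fell of 28, with 1 rise and 8 falls without scrambled siRNA replicate 1, 4 rises without scrambled siRNA replicate 2 and 2 rises without MITF siRNA replicate 2. Of the genes of the RNA interference machinery 1 rose and 7 fell of 13, or 4 falls without scrambled siRNA replicate 3. DICER1, which cuts precursors into small RNAs, stood at 204, 203 and 218 against 253, 272 and 285 CPM (log2 fold change -0.37, SE 0.046, adjusted p = 4.97e-08), and the silencing factor TNRC6B at 98.6, 107 and 110.3 against 136, 140.1 and 131 CPM (log2 fold change -0.37, SE 0.05, adjusted p = 3.68e-07). AGO2, the slicing Argonaute, rose (log2 fold change 0.22, SE 0.056).

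The response to siRNA was set beside that to the MITF vector, which shares no library with it though both entered 1 fit. The vector raised MITF from 299, 311 and 301 to 658, 679 and 633 CPM (log2 fold change 1.11). With the vector, 59.4% of tested genes were called against the empty vector, 28.6% higher and 30.8% lower. Of the 2673 genes higher with MITF siRNA, 1429 (53.5%) were lower with the vector and 425 (15.9%) higher. Of the 2384 lower with MITF siRNA, 1109 (46.5%) were higher with the vector and 566 (23.7%) lower. A test of the difference between the 2 responses called 56.9% of all tested genes (29.8% higher with siRNA than with the vector and 27.1% lower). It called all of the 1429 and 1109 genes with opposite calls, an outcome that their opposite calls in the same fit all but fixed. MLANA differed by -3.95 on the log2 scale (adjusted p = 2.08e-27), from -0.87 with siRNA and 3.08 with the vector. TYR, which did not pass with siRNA, had a log2 fold change of 0.22 with the vector, and the difference, -0.20, was called (adjusted p = 0.00847). Median log2 fold changes, with siRNA and with the vector, had opposite signs for melanosome structure (-0.36 and 0.54), reported MITF targets (-0.30 and 0.67), collagen-modifying enzymes (0.26 and -0.37) and laminins (0.37 and -0.31). Other lists had medians of the same sign, among them mitosis (-0.10 and -0.46), oxidant response (-0.02 and -0.32) and axon guidance (-0.06 and -0.25). Of the 42 mitosis genes, 16 fell with siRNA and 36 with the vector.

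Some genes did not have opposite calls in the 2 responses. SLC16A6, a monocarboxylate transporter, stood at 45.2, 47.5 and 44.6 CPM with MITF siRNA and 79.2, 82.9 and 96.7 with scrambled siRNA (log2 fold change -0.92, SE 0.061, adjusted p = 5.81e-14). With the vector its log2 fold change was -3.31 (difference 2.40, adjusted p = 3.26e-19). COL15A1 rose in both (log2 fold changes 1.01 and 1.05), and the difference did not pass (-0.04, SE 0.093, adjusted p = 0.722). SCRG1 and AFAP1L2, among the largest rises with siRNA, had log2 fold changes of -0.23 and -0.18 with the vector, neither called (adjusted p = 0.257 and 0.544), and their differences were called (adjusted p = 7.81e-13 and 6.36e-09).

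**Figure D4:**
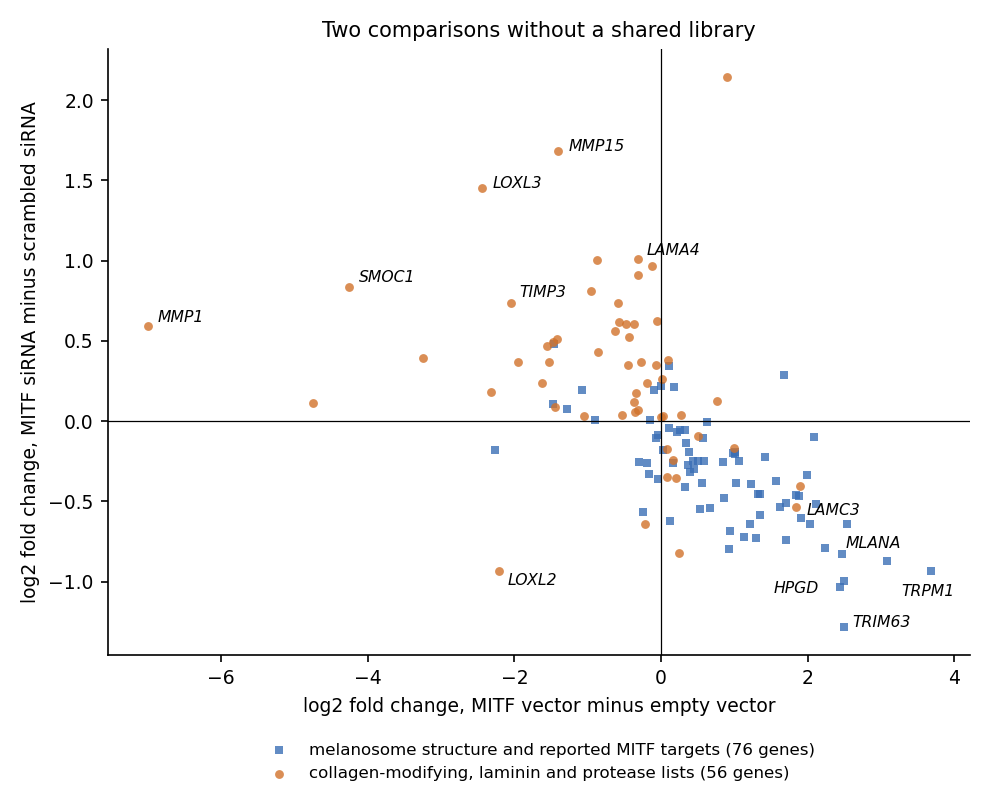
Log2 fold changes of list members with MITF siRNA (y axis, against scrambled siRNA) and with the MITF vector (x axis, against empty vector). Blue squares are 76 genes of the melanosome structure and MITF target lists, 57 of them in the lower right (below 0 with siRNA, above 0 with the vector), and orange circles are 56 genes of the collagen-modifying, laminin and protease lists, 39 of them in the upper left. LOXL2 lies in the lower left, lower in both.

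The 2 control groups differed in level for many of these genes. The scrambled siRNA libraries serve both in this comparison of controls and in that with MITF siRNA. MITF itself stood higher in the scrambled siRNA libraries than in those with the empty vector (log2 fold change 0.62, adjusted p = 3.17e-11), so the MITF siRNA libraries, at 343, 322 and 365 CPM, lay above the empty vector libraries given above. SCRG1 was at 3.51, 3.58 and 3.34 CPM in the empty vector libraries, close to the scrambled siRNA level given above (log2 fold change of scrambled siRNA minus empty vector 0.15, adjusted p = 0.526), and so was MMP15 (-0.11, adjusted p = 0.153). For SEMA3C the empty vector libraries stood at 166, 169 and 168 CPM, those with scrambled siRNA at 47.9, 49.0 and 51.7 and those with MITF siRNA at 153, 178 and 153. The MITF siRNA libraries of SEMA3C thus overlapped the empty vector range, and the scrambled siRNA libraries stood below both. TGFA had a like pattern, with empty vector libraries at 226, 215 and 244 CPM, against 60.2, 66.3 and 71.9 (scrambled siRNA) and 192, 251 and 199.8 (MITF siRNA). VCAN was the reverse, lowest of these 3 groups with the empty vector, at 21.7, 24.2 and 21.4 CPM. The siRNA and vector controls differ in reagent, selection and time, and these cannot be told apart here.

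**Figure D5:**
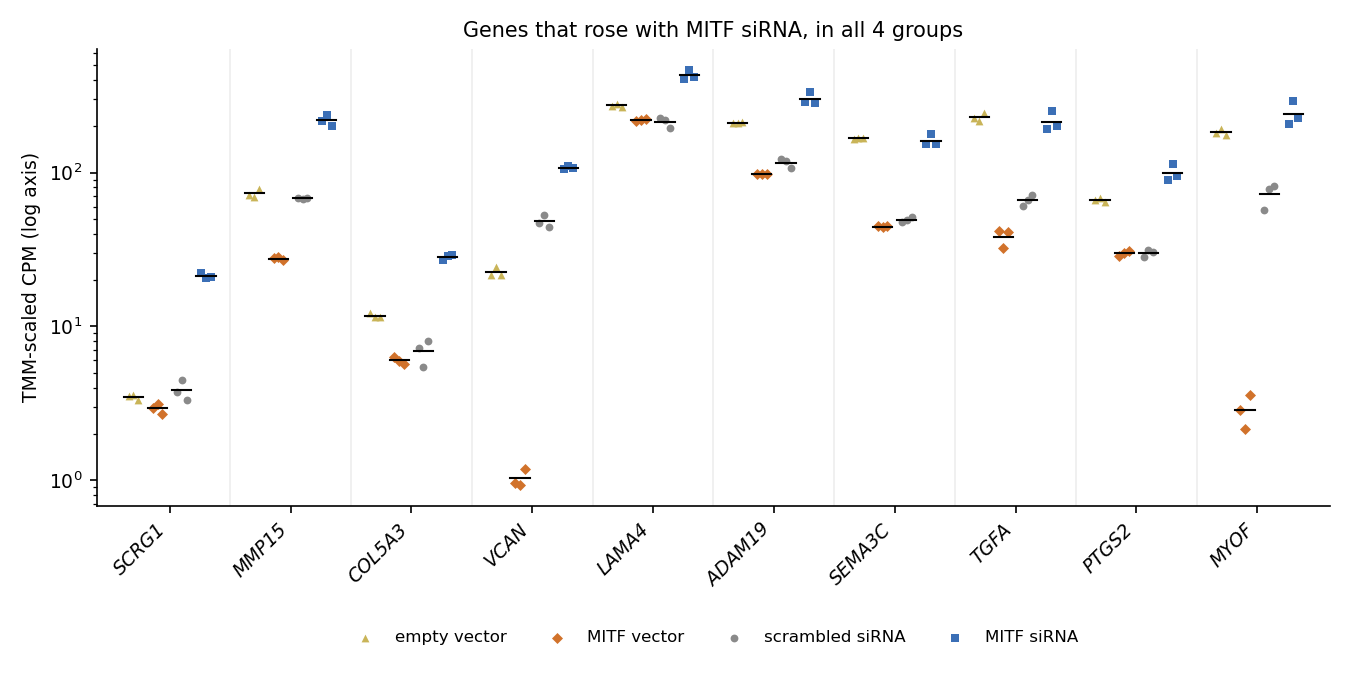
TMM-scaled CPM (log axis) of 10 genes that rose with MITF siRNA, in 3 libraries each of empty vector (yellow triangles), MITF vector (orange diamonds), scrambled siRNA (grey circles) and MITF siRNA (blue squares), with black lines at group means. For SCRG1 and MMP15 the control groups lie together, and for SEMA3C, TGFA, PTGS2 and MYOF scrambled siRNA lies below empty vector.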

How the data were processed

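RNA was measured in 12 libraries of A2058 cells, and the 6 siRNA libraries were compared. The authors deposited raw counts of reads per gene symbol. Their tools, per the submitters' processing notes, included STAR 2.6.0, featureCounts 1.6.3, SAMtools 1.10 and bcl2fastq 2.18.0, with hg19 as the build. Per the labels' protocols the libraries were stranded and made from total RNA, with paired reads of 76 bases. How featureCounts handled strand and multi-mapped reads was not given, so near-identical and overlapping genes are uncertain as single genes.

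Genes were kept by filterByExpr of edgeR with a minimum count of 10, and libraries were scaled by TMM. All 12 libraries entered 1 fit of 4 group means, so the groups share 1 estimate of spread per gene (edgeR 4.0.16, quasi-likelihood F-test, robust; limma 3.58.1; R 4.3.3). A Benjamini-Hochberg adjusted p under 0.05, over all tested genes, was called. The standard error (SE) is the size of the log2 fold change divided by the square root of F. Alternatives were DESeq2 1.42.0, limma-voom, other scaling and filters, a fit of the 6 siRNA libraries, a replicate block and leaving out each library. The fit was tested on simulated data with known changes in 50 genes each at 1.25-, 1.5-, 2- and 4-fold. It recovered 36%, 72%, 92% and 96% of these, and 12 of its 160 calls were false. Far fewer genes were changed there than were called here. A count of 0 allows up to 0.125 to 0.229 CPM (3 counts) in a siRNA library. Such floors, and intervals of count ratios (exact, 95%), cover counting error only.

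The genes and the 57 gene lists were chosen with earlier results of these data known. Named genes are MITF, members of the lists of pigment cell biology, up to 6 called members of each other list by adjusted p, or its 2 most abundant members where fewer than 2 were called, and the 15 largest and 10 smallest-p changes in each direction. For these, mean expression had to reach 1 log2 CPM and the 2 groups had to be free of overlap, and pseudogenes, placeholder names and Y-linked genes were left out. LOXL2, MMP1, TIMP3, AXL, NGFR, CXCL8, PLOD2, P4HA2, COL4A2, MMP14, YAP1, NEAT1, MALAT1, IFI6, OAS2, POSTN, HAPLN1, CCND1, SEMA6A, FN1, HPGD, TPM4, SPARC and PLXNB3 were named after their values were seen. Some genes that the rule names are not reported here. Promoter windows are from RefSeq, GRCh38.p14.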

Additional observations from a re-analysis of the deposited data

How the results depend on the processing

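MITF kept its direction and its call in each alternative, with a log2 fold change between -0.51 and -0.38. The number of genes called ran from 4119 to 4741 without 1 library, and was 4227 with DESeq2, 5028 with limma-voom, 5041 with the size factors of DESeq2, 5060 with no filter on low counts, 5045 with at least 1 CPM in 3 libraries and 4538 with the 6 siRNA libraries alone. Those changed at least 1.5-fold ran from 684 to 928. Of the 5057 genes called, 3993 to 4459 were among those called without 1 library and 4198 among those called by DESeq2. Of 417 genes eligible to be named, 354 were called, 332 of them in each alternative run, and none reversed. Of 63 not called, 11 were called in at least 1 alternative. Labels give both siRNA groups replicate numbers 1 to 3, without saying that a number marks shared cultures. Deviations from the group means of same-numbered libraries correlated at r of -0.0099, -0.025 and 0.052 over genes. Libraries of unlike number correlated at r from -0.085 to 0.079. With 3 libraries per group these values cannot tell whether same-numbered libraries shared cultures. With a replicate block 4860 genes were called, 4764 of them among the 5057. The 3 libraries per group limit precision, most of all for genes with few counts.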

Other observations

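Genes grouped by the start of their symbol, a grouping made after the data were seen and not tested, gave 2 groups with counts away from the background. Of 48 tested genes whose symbol starts with HIST, the replication-dependent histone genes, 36 fell and 0 rose, and 47 had a log2 fold change below 0 (median -0.30). Histone mRNAs of this kind mostly lack a poly(A) tail and their genes are near copies of each other, so single members are uncertain. Of 27 genes starting with SEC, many of which encode parts of the secretory pathway, 15 rose, 3 fell and 5 had a log2 fold change below 0 (median 0.21). The background was 18.7% of tested genes higher and 16.7% lower.

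For 2 matrix genes, nearly all counts within the 6 siRNA libraries came from those given MITF siRNA. POSTN, periostin, had 71 counts over the 3 MITF siRNA libraries and 2 over the 3 scrambled siRNA libraries, a ratio per depth of 23.6 (exact 95% counting interval 6.31 to 199). HAPLN1, a link protein of hyaluronan matrix, had 60 counts and 1, a ratio of 40.0 (6.91 to 1605). Both were chosen after their values were seen, so the ratios and intervals are a description and no test. The log2 fold change of HAPLN1, 4.96, ran from 4.25 to 7.01 over the alternatives.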
